A study of Mus musculus with 23 samples.

Results

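The prefrontal cortex of mice was compared 192 h after tumour cells were placed under the skin and 192 h after the vehicle alone. All mice were female Balb/c animals, 8 weeks old at injection. The tumour group received 100000 cells of 4T-1, a mammary carcinoma line of the same strain. The cells were suspended in 100 µl of buffered saline (PBS), the volume that the control mice received without cells. Among the 23 arrays of the series, 4 carried total RNA taken at 192 h with both dye orientations, and these 4 are described here. They form 2 biological replicates, named 3 and 4 in the titles. For each replicate, 1 array carried the tumour RNA in Cy5 and 1 carried it in Cy3, and each array set the tumour RNA directly against a PBS RNA on the same slide. The labels leave unstated how many mice went into a replicate, and the p-values below reflect sample-to-sample spread only, some of which can be technical. They also do not say how far the inoculum had grown when the tissue was taken.

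The prefrontal cortex is the association area behind working memory, the appraisal of threat and the control of the stress axis. Its principal cells are glutamatergic pyramidal neurons, held in check by GABAergic interneurons and surrounded by astrocytes, oligodendrocytes and microglia. A tumour outside the nervous system can reach such cells through circulating cytokines, glucocorticoids, metabolites and sensory nerves, and genes of inflammation, stress hormones and energy metabolism are the usual readouts. In bulk tissue, fewer cells of a type and less RNA per cell cannot be told apart.

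Values are log2 ratios of tumour over PBS: 1 means a 2-fold higher signal after tumour cells, and 0 means an equal signal. This direction is likely, not certain, since the headers do not name the dye of a channel. It was taken from the dyes in the labels, with which the signs of the deposited log ratios run parallel. Each array held 10080 spots. A value was obtained for 5502 oligos on the Cy5-tumour array and 3423 on the Cy3-tumour array of replicate 3, and for 8025 and 7300 on those of replicate 4. Both arrays of the swap measured 3172 oligos in replicate 3 and 6700 in replicate 4, and 2762 oligos of 2732 genes were measured in both replicates. Replicate 3 was hybridised on another printing of the array than replicate 4 and all replicates of the earlier times, so printing and replicate cannot be told apart. The labelled tissue was checked against cell markers. On all 4 arrays, 9 of 12 astrocyte markers with an oligo (75%) and 10 of 19 pan-neuronal genes (52.6%) had a value. The share was 31.3% of all 8726 genes, 16.7% of the leukocyte markers (3 of 18) and 13.3% of the markers of mammary epithelium and carcinoma (2 of 15). Of the other brain lists, oligodendrocyte markers (66.7%), excitatory neuron and cortical layer markers (61.5%) and striatal neuron markers (4 of 7, 57.1%) lay above the share of all genes, and microglia (25%) and endothelial and pericyte markers (23.1%) below it. The check thus does not separate cortex from striatum. The astrocyte gene Gfap, the myelin gene Mbp, the erythroid gene Hba-a1 and the epithelial keratin Krt8 have no named oligo on these printings.

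The swapped arrays gave ratios of like sign more often than not in replicate 4 and of unlike sign in replicate 3. Across 6700 oligos of replicate 4, the ratios of both arrays correlated at r = 0.156, and 53.3% had the same sign. Across 3172 oligos of replicate 3, r was -0.596 and 25.4% had the same sign. An r below 0 means that oligos tended to keep the sign of their Cy5 over Cy3 ratio when the tumour label changed dye. The position on the slide moved with this: the block of the slide held 38.3% and 60% of the variance on the Cy5-tumour and Cy3-tumour arrays of replicate 3, and 25.1% and 11.5% on those of replicate 4. Its part in the disagreement was not tested. With the loess curve fitted inside each of the 48 blocks, r was -0.191 for replicate 3 and 0.345 for replicate 4, where 64.1% of oligos then had the same sign. In the authors' deposited value tables r was -0.126 and 0.469. The direction of replicate 3 is therefore not settled by its own arrays. All oligos of 1 array share its slide and dyes, so these r values describe the arrays and are not tests.

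**Figure D1:**
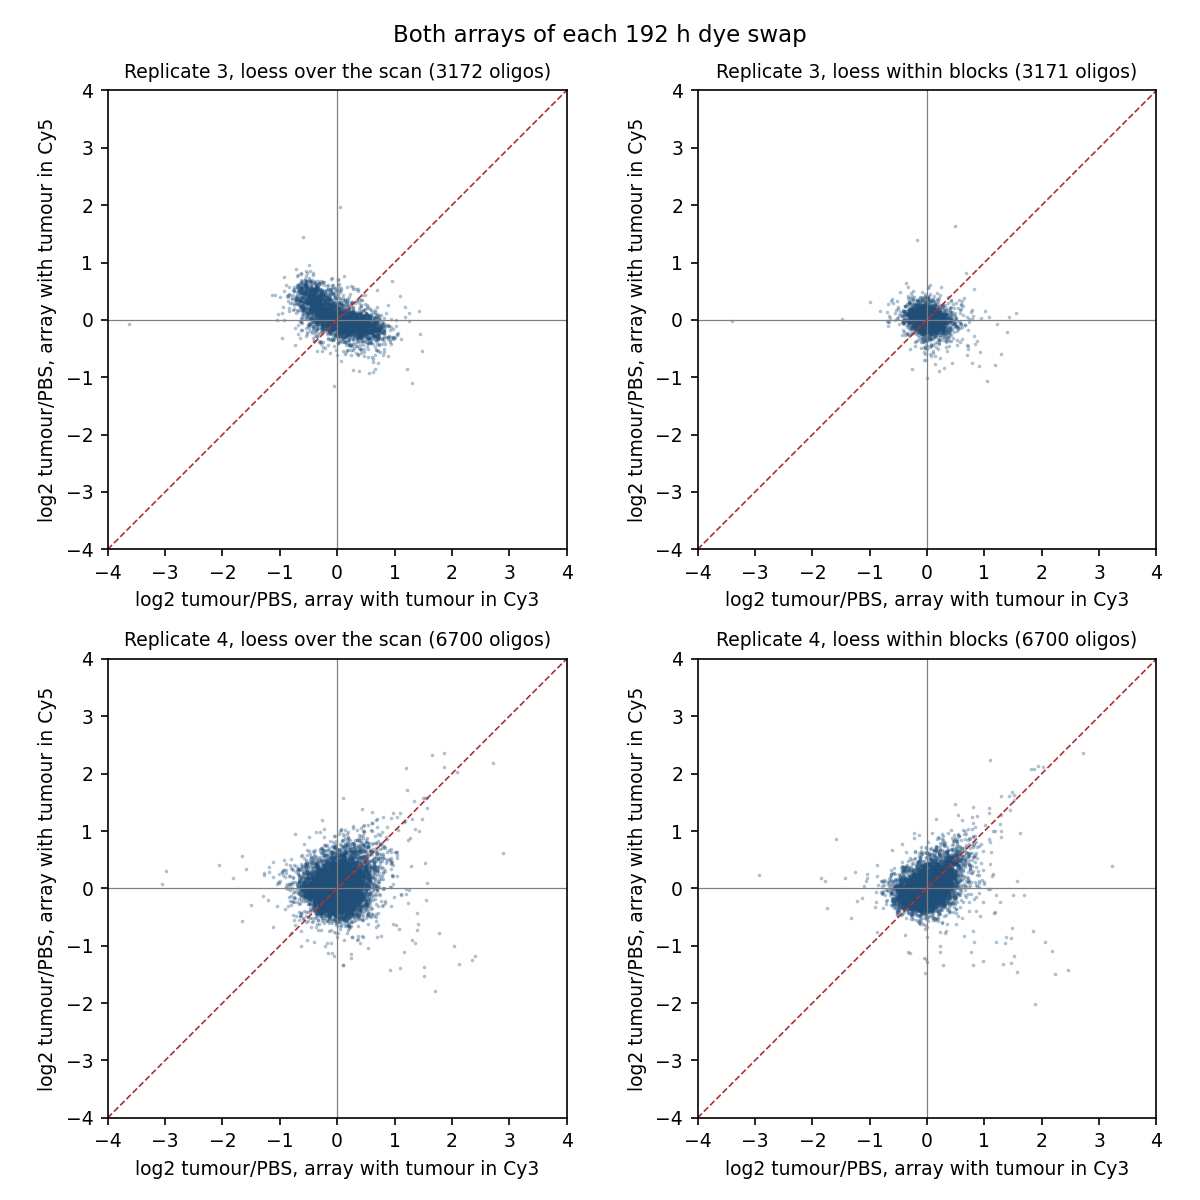
Each point is an oligo, with its log2 tumour over PBS ratio on the array with tumour RNA in Cy3 (horizontal) and in Cy5 (vertical), for replicate 3 (top) and replicate 4 (bottom), with loess over the whole scan (left) or inside blocks (right); the dashed line marks equal values. The cloud of replicate 3 runs against the line (r = -0.596 and -0.191), and that of replicate 4 runs along it (r = 0.156 and 0.345), with a group of oligos near 1 to 2 on both of its arrays.

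Testing each oligo against 0 over both replicates asks whether any of the 2762 oligos measured in both differed 8 days after the cells. Oligos outside this set were not tested. Replicate 3 enters each mean, and its direction is not settled by its own arrays. A lack of calls would therefore not show that no transcript differed. In limma, fitted over all oligos with the spread shared across the times 18, 72 and 192 h, 0 of 2762 oligos passed an adjusted p of 0.05 (0%), and the smallest adjusted p was 1.00. Without adjustment, 82 oligos had a p under 0.05 on the higher side (2.97%) and 11 on the lower side (0.398%), 93 in all, where the threshold alone would give 138.1. The 95% interval reached 0.32 to either side of the estimate at the median, and that of 99.6% of the oligos lay inside -1 to 1. On simulated data, 98% of oligos moved by 1 and 100% of those moved by 2 on the log2 scale were recovered, and 4 unchanged oligos were called. There the replicate values were shuffled across oligos, so each oligo lost its own spread, and a moved oligo got the same shift in both replicates. The shares recovered are thus not the power of the test on the real values. The real replicates did not move together (r = 0.0274), so the simulation does not show that changes of this size were absent. The median ratio of all genes was 0.02, and 55.4% of oligos and 55.3% of genes lay above 0. By replicate, 57.7% of these genes lay above 0 in replicate 3 and 46.7% in replicate 4. Between the replicates, ratios correlated across oligos at r = 0.0274 (n = 2762), and 48.7% had the same sign.

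**Figure D2:**
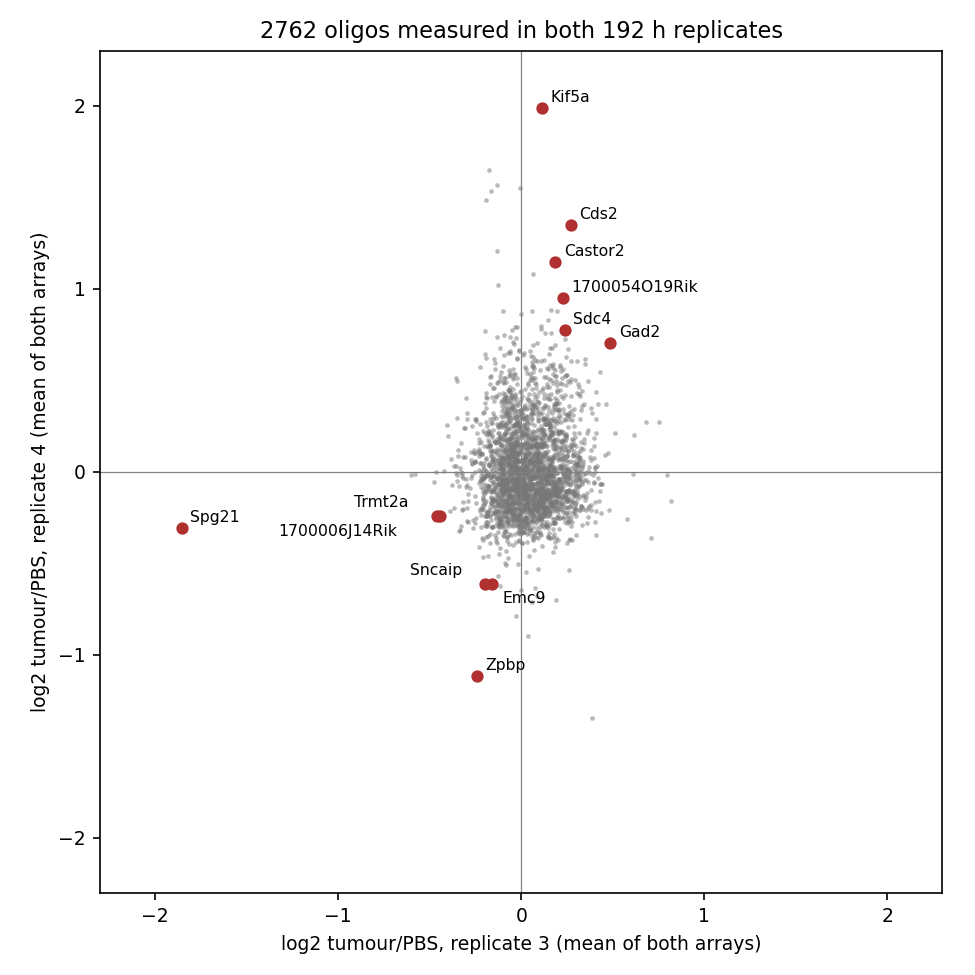
Each point is 1 of 2762 oligos, with its mean log2 tumour over PBS ratio in replicate 3 (horizontal) and replicate 4 (vertical). The 12 named oligos, the 6 higher and 6 lower of smallest p, lie away from the cloud mostly along 1 axis: Kif5a at 1.99 in replicate 4 and 0.11 in replicate 3, and Spg21 at -1.86 in replicate 3 and -0.31 in replicate 4.

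Among the 6 higher oligos of smallest p, Gad2 and Sdc4 lay above 0 on all 4 arrays. Gad2 (on chromosome 2) encodes the smaller isoform of glutamate decarboxylase, which makes GABA at inhibitory terminals. It stood at 0.11 on the Cy5-tumour array and 0.86 on the Cy3-tumour array of replicate 3, and at 0.49 and 0.92 on those of replicate 4. Its mean was 0.59 ± 0.15 (SE, n = 2; limma adjusted p = 1.00), and it stood at -0.21 at 18 h and -0.27 at 72 h. Gad2 did not have the 2 replicate values required by the test at both of these earlier times. Sdc4, a cell surface heparan sulphate proteoglycan, stood at 0.04 and 0.44 in replicate 3 and at 0.77 on each array of replicate 4 (mean 0.50 ± 0.16). Both genes were above 0 in both replicates, with the higher value in replicate 4.

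The vesicular transporter of GABA, Slc32a1, had 0.22 ± 0.18 (SE), with -0.01 and 0.47 in replicate 3 and 0.16 and 0.28 in replicate 4. Gad1, which encodes the other glutamate decarboxylase, was measured on 3 arrays, at 0.39 and -0.16 in replicate 3 and at 0.00 on the Cy5-tumour array of replicate 4. The peptides and calcium-binding proteins that mark interneuron classes, named after their values were seen, were above 0 like Gad2 in replicate 3 in 4 of 5 cases and below 0 in replicate 4 in all 5. In replicate 3 Tac1 stood at 0.26, Vip at 0.20, Calb1 at 0.16, Sst at 0.14 and Pvalb at -0.18. In replicate 4 Tac1 stood at -0.54, Vip at -0.37, Calb1 at -0.11, Sst at -0.12 and Pvalb at -0.08. Their means were near 0: Tac1 stood at -0.14, Vip at -0.09, Pvalb at -0.13, Sst at 0.01 and Calb1 at 0.02 over both replicates. Of the 8 interneuron genes tested, 4 lay above 0 (median -0.04) and 0 passed, with medians of 0.18 in replicate 3 and -0.12 in replicate 4. On the oligos of replicate 4 alone the list was split. There 4 of 11 genes lay above 0 on both arrays (36.4%, against 27.4% of all genes) and 7 below. The higher ones included Kcnc1 at 1.18 on each array, named after its values were seen.

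The other 4 higher oligos rested on replicate 4. Kif5a (chromosome 10), the motor that carries cargo along axons, stood at 2.12 and 1.86 on the Cy5-tumour and Cy3-tumour arrays of replicate 4, and at 0.36 and -0.13 on those of replicate 3 (mean 1.05 ± 0.28, SE, n = 2). Cds2, an enzyme of phosphoinositide synthesis, stood at 1.21 and 1.48 in replicate 4 and at -0.18 and 0.73 in replicate 3. Castor2, of the arginine-sensing arm of mTORC1 control, stood at 1.32 and 0.97 in replicate 4 and at -0.04 and 0.41 in replicate 3. The unstudied gene 1700054O19Rik had the same form, at 1.20 and 0.70 in replicate 4 and -0.15 and 0.60 in replicate 3. In each of these 4 genes both arrays of replicate 4 lay above both arrays of replicate 3.

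Among the lower oligos, Spg21 had the most negative mean (-1.08 ± 0.29, SE, n = 2), and 1 array carried it. It stood at -3.63 on the Cy3-tumour array of replicate 3, and at -0.08, -0.43 and -0.18 on the other 3 arrays. Sncaip, whose product binds alpha-synuclein, stood at -1.18 on the Cy5-tumour array of replicate 4 and between -0.35 and -0.04 elsewhere. Trmt2a, a tRNA methyltransferase, stood at -1.02 on the Cy3-tumour array of replicate 3 and at 0.10 on its partner. A single array thus set the size of these 3 means. Emc9, a subunit of the membrane protein insertion complex of the endoplasmic reticulum, stood at -0.56 and -0.67 in replicate 4 and at 0.13 and -0.45 in replicate 3.

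A second reading asks which oligos had the same sign on all 4 arrays, whatever their p. There were 113 higher (4.09%) and 74 lower (2.68%) among 2762. No chance level was computed for these counts. Both arrays had the same sign for 25.4% of oligos in replicate 3 and 53.3% in replicate 4. Between the replicate means, 48.7% had the same sign. One sign on all 4 arrays therefore does not by itself mark a tumour response. The 10 of each direction whose weakest array lay farthest from 0 are named, picked from these same values. Tbc1d8, a member of the family of Rab GTPase activators, had 0.35, 0.34, 0.39 and 0.35 on the 4 arrays (mean 0.36 ± 0.15, SE). Cntfr, the ligand-binding receptor for ciliary neurotrophic factor, stood at 0.20 and 0.22 in replicate 3 and at 0.45 and 0.44 in replicate 4. Rad23b, of nucleotide excision repair, ranged from 0.17 to 0.27. For these 3 genes both arrays of a replicate lay within 0.1 of each other.

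Pou6f1, a POU homeobox factor of brain, had the largest mean of the 10 higher genes (0.51 ± 0.16), with 1.09 on the Cy3-tumour array of replicate 3 and 0.17 to 0.41 on the other 3. The Riken gene 5730522E02Rik averaged 0.48 and reached 0.98 on 1 array of replicate 4. Macrod2, which removes ADP-ribose from proteins, averaged 0.36, and Cblc, a ubiquitin ligase of the Cbl family, 0.37. The helicase gene Ighmbp2, mutated in a human motor neuron disease, averaged 0.30, Arfgap3, which acts on ARF1 at the Golgi, 0.26, and Ids, the lysosomal iduronate sulphatase, 0.33. Ids stood at 0.82 on the Cy5-tumour array of replicate 4 and at 0.13 to 0.19 on the others. All 10 had a limma adjusted p of 1.00.

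The 10 lower genes had varied roles. Mlycd, malonyl-CoA decarboxylase of fatty acid oxidation, stood at -0.32 and -0.42 in replicate 3 and at -0.17 and -0.23 in replicate 4. Esrra, a nuclear receptor that drives genes of oxidative metabolism, stood at -0.23 and -0.44 in replicate 3 and at -0.15 and -0.49 in replicate 4. Mrpl2, a protein of the mitochondrial ribosome, ranged from -0.23 to -0.15. Means of these 3 genes lay between -0.33 and -0.20, and none passed the test (limma adjusted p = 1.00 for each).

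Asns, asparagine synthetase, and Chac1, which degrades glutathione, are both targets of ATF4, the transcription factor of the amino acid and unfolded protein responses. Asns stood at -0.15, -0.18, -0.15 and -0.13 on the 4 arrays, and Chac1 at -0.16, -0.13, -0.19 and -0.18. Their means were -0.15 ± 0.14 and -0.17 ± 0.14 (SE, n = 2), so each SE, taken from the spread of the whole experiment, was about as large as the ratio. At 18 and 72 h both genes also lay below 0, Asns at -0.22 and -0.16 and Chac1 at -0.11 and -0.25. Neither gene had the 2 replicate values that the test required at both of these times. Of 9 genes of the unfolded protein response tested at 192 h, 5 lay above 0 (median 0.01).

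The remaining lower genes were Zpbp, a sperm acrosome gene (-0.68 ± 0.19), which reached -1.65 on the Cy3-tumour array of replicate 4, and Polr1d, a subunit of RNA polymerases I and III (-0.32). Ppp3cb, a catalytic subunit of calcineurin, stood at -0.27, the RNA helicase Ddx42 at -0.25 and the G protein subunit Gng13 at -0.23.

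**Figure D3:**
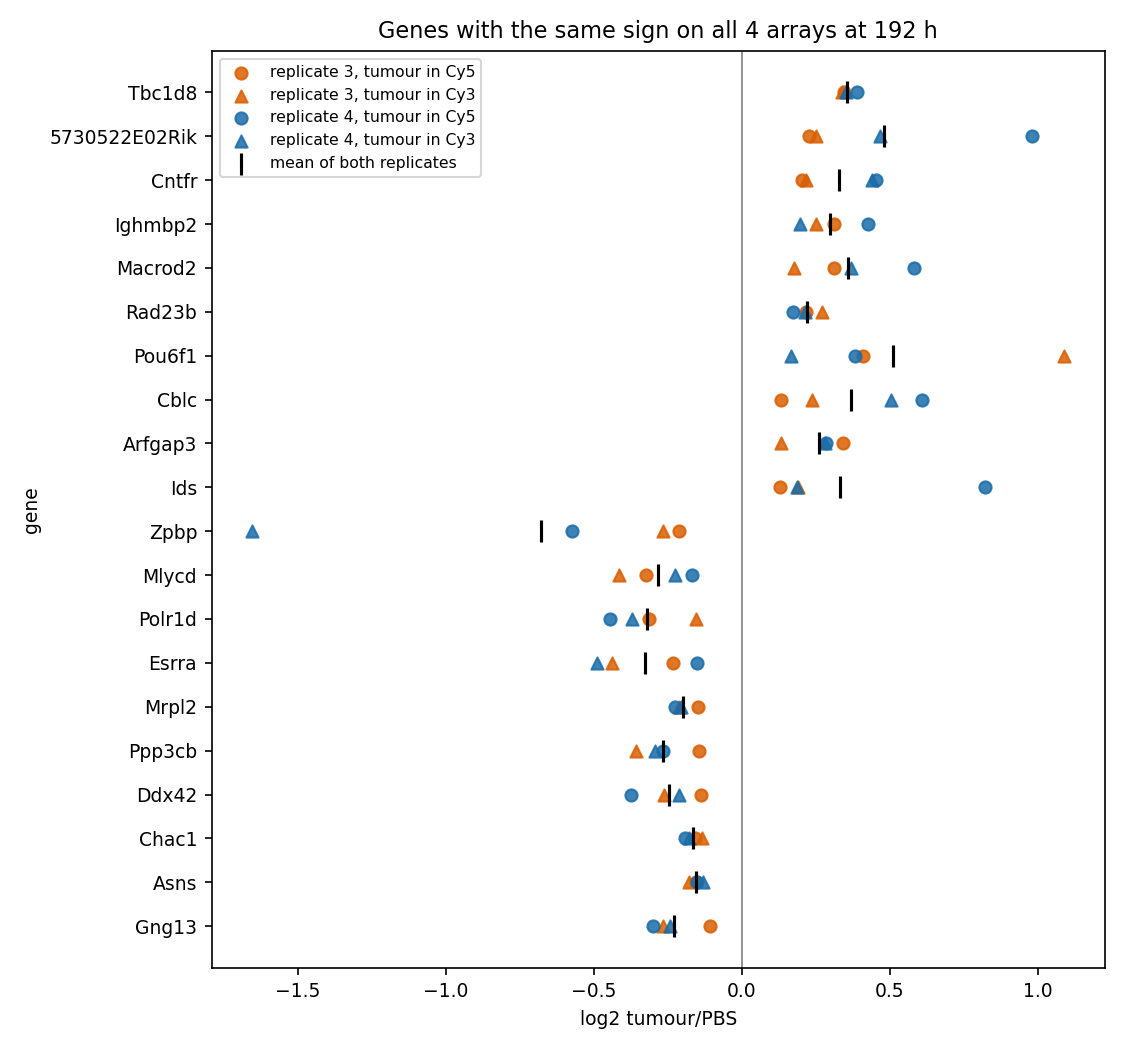
Log2 tumour over PBS ratios (horizontal) of the 10 higher and 10 lower genes with the same sign on all 4 arrays; circles are arrays with tumour RNA in Cy5, triangles those with tumour RNA in Cy3, orange is replicate 3, blue is replicate 4, and the bar is the mean. Tbc1d8, Chac1 and Asns lie within a narrow span on all 4 arrays, while Pou6f1, Zpbp and Ids each have 1 array far from the rest.

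Replicate 4 by itself held a distinct set of large ratios. Its mean exceeded 1 for 27 of 6700 oligos (0.403%) and lay below -1 for 3 (0.0448%), against 1 oligo above 1 and 1 below -1 in replicate 3 (each 0.0315% of 3172). Both arrays lay above 0.5 for 116 oligos of replicate 4 (1.73%) and below -0.5 for 13 (0.194%), against 2 (0.0631%) and 0 in replicate 3. The genes named from replicate 4 in this and the next 3 paragraphs were chosen after their values were seen, and 1 replicate gives no check between animals. A limma fit with replicate 4 as the only 192 h sample, which assumes that it varies like the other times, called 17 higher (0.254%) and 2 lower (0.0299%). Of these 19 oligos 9 had a replicate 3 value.

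The 27 oligos had varied roles, and the largest means belonged to the ciliary gene Efhc2, to Dpysl2 and to the RNA helicase gene Ddx6. Efhc2 stood at 2.19 and 2.71 on the Cy5-tumour and Cy3-tumour arrays of replicate 4, and Ddx6 at 2.03 and 2.09. In the measured replicates of 18 and 72 h Efhc2 ran from -2.26 to 0.50. Dpysl2, the collapsin response mediator of axon growth, stood at 2.37 and 1.86 in replicate 4 and at -0.25 on the array of replicate 3 that measured it. Kif1b, a kinesin of synaptic vesicle precursors, stood at 1.57 and 1.53 in replicate 4 and at 0.08 and -0.10 in replicate 3. Map1b, a microtubule protein of growing axons, stood at 1.41 and 1.56 in replicate 4 and at -0.18 and -0.21 in replicate 3. All arrays of replicate 4 lay above 1 for these 5 genes, while the measured values of replicate 3 for Dpysl2, Kif1b and Map1b lay between -0.25 and 0.08.

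Grin2a, a subunit of NMDA receptors, stood at 1.52 and 1.34 in replicate 4 and at 0.00 on the 1 array of replicate 3 that measured it. Grin2b, Grik3 and the postsynaptic scaffold Dlg4 averaged 0.81, 0.94 and 1.02 in replicate 4, and on the Cy5-tumour array of replicate 3 stood at -0.46, -0.38 and 0.08. Grin2b and Grik3 are not among the 27. Glutamate receptor and postsynaptic density genes as a list had 8 of 15 above 0 in replicate 4 (53.3%, against 48.6% of all genes; median 0.05). On both arrays 6 lay above 0 (40%, against 27.4% of all genes) and 3 below (20%, against 26%). The fast potassium channel gene Kcnc1 stood at 1.18 on each of its arrays, and the adhesion molecule Ncam1 at 1.16 and 1.17. The extracellular proteoglycan Spock2 stood at 1.57 and 1.56 in replicate 4 and at 0.32 and -0.59 in replicate 3. The kinase gene Cit stood at 2.32 and 1.66. Genes of other kinds lay as high. The chloride channel gene Clcn1 stood at 1.58 and 1.49 in replicate 4 and at 0.35 and -0.68 in replicate 3. Hyal6 stood at 1.21 and 1.31 in replicate 4. Xist, on the X chromosome, stood at 0.88 and 1.26 in replicate 4 and at -0.33 on the Cy5-tumour array of replicate 3. All mice were female, and what set the Xist ratio was not tested. In 11 of the 27 oligos replicate 3 had a value, from -0.19 to 0.27, and 4 of the 11 lay above 0.

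These 27 oligos lay in 22 of the 48 blocks, with at most 3 in 1 block, and their brightness in replicate 4 ran from the 25.8 to the 96.6 percentile (median 72.6). In the replicates of 18 and 72 h they had 84 values, from -2.40 to 0.56 (median -0.01), and 0 above 1. Under settings tried after seeing the data, loess inside blocks gave these oligos ratios in replicate 4 that ran from 0.95 to 2.54. In the authors' value table, whose logarithm has no stated base, 26 of them had a value in replicate 4, from 0.58 to 2.19. Polr3gl rested on 1 array, at 2.90 against 0.62 on its partner. The 2 lower calls did so too: Mrpl9, of the mitochondrial ribosome, stood at -2.99 and 0.31 on the Cy3-tumour and Cy5-tumour arrays of replicate 4, and Sdf2l1, an endoplasmic reticulum chaperone, at -3.06 and 0.08. With loess inside blocks the -3.06 of Sdf2l1 became -0.35.

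**Figure D4:**
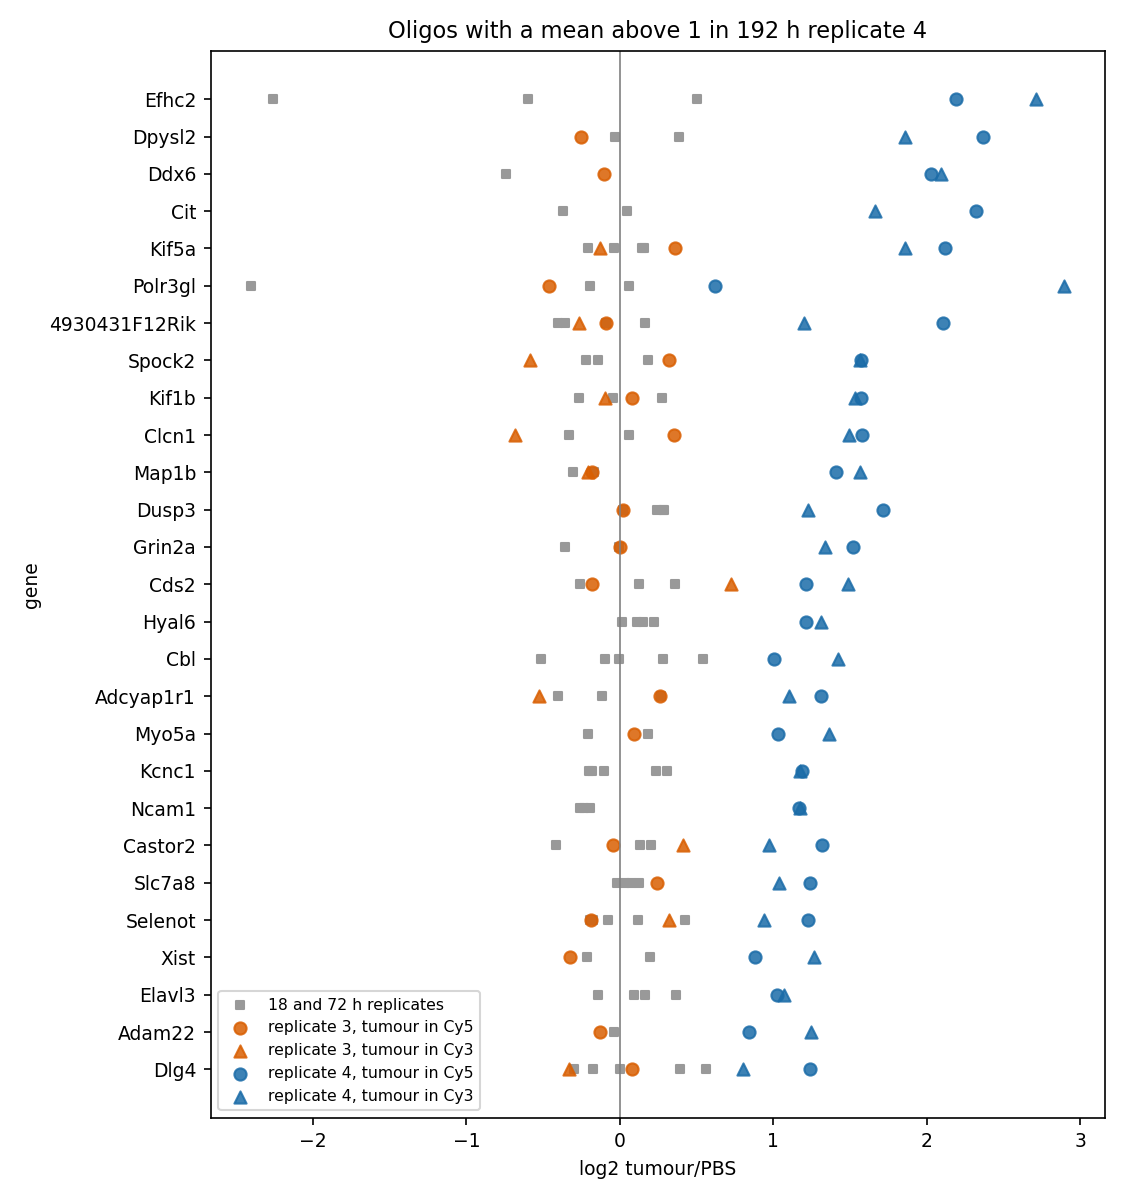
Log2 tumour over PBS ratios (horizontal) of the 27 oligos with a mean above 1 in replicate 4 (blue; circles Cy5-tumour, triangles Cy3-tumour), with the arrays of replicate 3 (orange) and the replicate means of 18 and 72 h (grey squares). The blue symbols of 21 oligos both lie above 1, and the other replicates mostly scatter about 0. Far from 0 lie Efhc2 at -2.26 in the 18 h replicate 4 and Polr3gl at -2.40 in the 72 h replicate 3.

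Replicate 3 had few oligos that stood far from 0 on both arrays, and these were other genes. Fabp7, the fatty acid-binding protein of radial glia and astrocytes, led them at 0.67 and 0.96, with -0.21 and -0.11 in replicate 4. Tes, of focal adhesions, stood at 0.52 and 0.69, and another oligo of Tes, measured in replicate 4 alone, stood at -0.75 and -0.14. Among lower oligos, Kbtbd11 ranked first by the weaker of its arrays, at -0.43 and -0.74, with 0.46 and -0.49 in replicate 4. These 3 genes were named after their values were seen. In replicate 4 Fabp7 had the other sign on both arrays, and Kbtbd11 on the Cy5-tumour array.

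Gene lists were described by counts and medians, with no test of the list, beside the same over all genes. Oxidative phosphorylation, the complexes of the respiratory chain and ATP synthase, had 3 of 24 tested genes above 0 (12.5%, median -0.08, against 55.3% and 0.02 over all genes), and 0 passed. Cytosolic ribosomal proteins had 2 of 18 above 0 (11.1%, median -0.12). Ndufb5 of complex I stood at -0.21 and -0.34 in replicate 4 and at -0.08 and -0.50 in replicate 3. Rps25 of the small ribosomal subunit stood at -0.31 and -0.30 in replicate 4 and at 0.30 and -0.83 in replicate 3. Uqcrb of complex III and the tested oligo of Rpl11, of the large subunit, had the same form, with opposite signs on the arrays of replicate 3. A second oligo of Rpl11 stood at 0.32 and 0.16 in replicate 4, so the oligos of this gene disagreed. Those of Ndufb4, an oxidative phosphorylation gene named after its values were seen, disagreed too. On the Cy5-tumour and Cy3-tumour arrays of replicate 4 its tested oligo stood at -0.33 and -0.03. The second one stood at 0.93 and 0.75 there.

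On the oligos of replicate 4 alone, 20 of 26 oxidative phosphorylation genes lay below 0 on both arrays, 76.9% against 26% of all 6545 genes. The count was 17 of 19 for ribosomal proteins (89.5%) and 8 of 17 for proteasome subunits, of which 1 had a mean above 0, where 48.6% of all genes did (56.9% in replicate 3). In replicate 3 it was 3 of 31, 4 of 31 and 3 of 18, against 11% of all genes. The medians in replicate 4 were -0.17, -0.21 and -0.17, and with loess inside blocks -0.11, -0.15 and -0.13. In replicate 3 loess inside blocks gave medians of -0.04, -0.02 and -0.02. Under that setting 5 of 31 oxidative phosphorylation genes lay above 0 in replicate 3, against 1669 of all 3129 genes. With loess over the scan, 14 of 31 did (45.2%, against 56.9% of all genes). The list thus lay far below all genes in both replicates under loess inside blocks only. Under that setting the arrays of replicate 3 correlated at r = -0.191.

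Other lists lay above 0 more often than all genes in replicate 4. Kinesins, dyneins and tubulins lay above 0 on both arrays in 14 of 25 genes (56%), synaptic vesicle and exocytosis genes in 9 of 17 (52.9%), and mTOR and insulin signalling in 12 of 18 (66.7%), against 27.4% of all genes in replicate 4 (14.4% in replicate 3). Rab3c, of synaptic vesicles, stood at 0.56 and 0.79, and Syn1, which tethers the vesicles, at 0.43 and 0.53. Within the mTOR and insulin list, Castor2 (above) lay highest of the genes tested in both replicates, and Nprl2, of the GATOR1 complex that restrains mTORC1, lay lowest. Nprl2 stood at -0.11 and -0.53 in replicate 4 and at 0.16 and -0.84 in replicate 3. Rab3c was named after its values were seen. The lists' medians were 0.16, 0.18 and 0.16 in replicate 4 and 0.04, 0.02 and -0.01 in replicate 3. Potassium, sodium and calcium channels lay above 0 on both arrays in 11 of 24 genes of replicate 4, and receptors of monoamines, acetylcholine and neuropeptides in 13 of 25. Neuronal lists did not all lie on that side. Excitatory neuron and cortical layer markers lay above 0 on both arrays in 0 of 10 genes and below in 2 (20%, median -0.14). Interneuron genes were split, with 4 of 11 above 0 on both arrays and 7 below (median -0.11). Of all genes, 26% lay below 0 on both arrays of replicate 4.

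**Figure D5:**
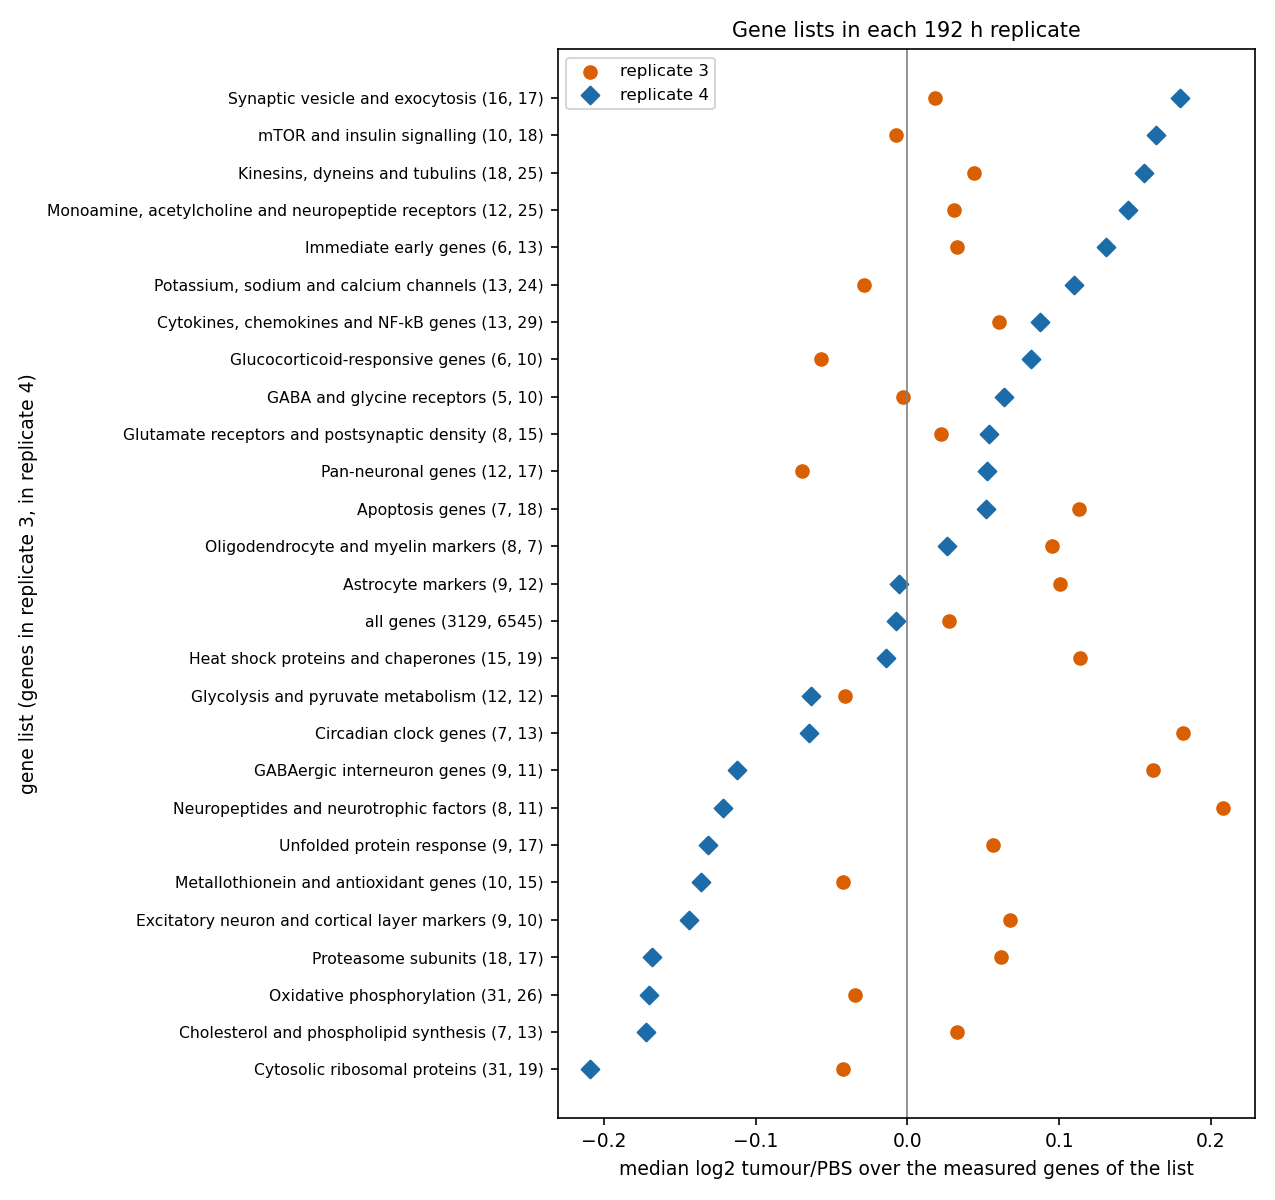
Median log2 tumour over PBS ratio (horizontal) of each gene list with at least 5 measured genes in each replicate, on the oligos of replicate 3 (orange circles) and of replicate 4 (blue diamonds); the numbers of genes follow the names. Ribosomal proteins (-0.21), oxidative phosphorylation and proteasome subunits (each -0.17) lie lowest in replicate 4 together with cholesterol and phospholipid synthesis (-0.17), synaptic vesicle genes lie highest (0.18), and replicate 3 has another order.

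Inflammatory and stress genes, the usual readouts of a peripheral tumour, showed no call, and neither did any of the 2762 oligos tested. Many were not measured. All 4 arrays gave a value for 9 of 43 cytokine, chemokine and NF-kB genes with an oligo (20.9%). The count was 2 of 19 for interferon and antigen presentation (10.5%) and 2 of 15 for complement and acute phase genes (13.3%). It was 4 of 16 for immediate early genes (25%) and 6 of 14 for glucocorticoid-responsive genes (42.9%), against 31.3% of all genes. The cytokine genes Il1b and Il6 were near 0: Il1b stood at -0.25 and 0.12 in replicate 3 and at 0.17 on each array of replicate 4, and Il6 was measured in replicate 4 alone, at -0.05 and -0.02. Of 9 cytokine, chemokine and NF-kB genes tested, 7 lay above 0 (median 0.05). Aif1, the microglial marker IBA1, stood at 0.03 and -0.63 in replicate 3 and at -0.41 and -0.13 in replicate 4 (mean -0.28 ± 0.15, SE). With Olfml3 (-0.22) and P2ry12 (-0.09) it made 0 of 3 microglial markers above 0. In replicate 4, where 10 such markers were measured, 3 lay above 0, Itgam highest at 0.41 and Fcer1g lowest at -0.32. Olfml3, P2ry12, Itgam and Fcer1g were named after their values were seen.

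The C1q genes of complement, made by microglia, were measured on both arrays in replicate 4 alone. C1qa stood at -0.35 and -0.41, C1qb at -0.12 and -0.21, and C1qc at -0.57 and -0.16, so all 6 values lay below 0. Irf7, the interferon regulatory factor of antiviral responses, stood at -1.01 and -0.64 there. Of 10 interferon and antigen presentation genes measured in replicate 4, 6 lay above 0. These genes were named after their values were seen. The Cy5-tumour array of replicate 3 measured the C1q genes, at 0.34 for C1qa, 0.18 for C1qb and -0.08 for C1qc, so C1qa and C1qb had the other sign there.

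Among glucocorticoid-responsive genes, 3 of 6 lay above 0 (median -0.04). Mt1, a metallothionein, stood at -0.10 ± 0.14 (SE). Fkbp5, the cochaperone of the glucocorticoid receptor, was measured on 1 array, at 0.25, and S100a8, a neutrophil gene, on 1 array, at 0.30. The immediate early gene Arc, which marks recent synaptic activity, stood at 0.02 and 0.75 in replicate 3 and at 0.02 and 0.67 in replicate 4 (mean 0.36 ± 0.15, limma adjusted p = 1.00). In both replicates the Cy3-tumour array alone gave the high value. The keratin gene Krt14, a marker of mammary epithelium named after its values were seen, also went with the dye, at -1.11 and 1.31 in replicate 3 and at -1.24 and 2.36 in replicate 4. Fos, another immediate early gene, stood at 0.11 ± 0.27 and all 4 tested genes of that list lay above 0. Bdnf, the neurotrophin, had 0.06 ± 0.15, with -0.20 and 0.75 in replicate 3 and 0.04 and -0.36 in replicate 4.

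The last comparison asked whether the ratio at 192 h differed from that at 18 and 72 h. Of 1231 oligos measured at all 3 times, limma called 0 (0%; smallest adjusted p = 0.971), and without adjustment 48 (3.9%) were higher and 6 (0.487%) lower with p under 0.05. The smallest p belonged to 1700054O19Rik, at 0.59 at 192 h, against -0.17 at 18 h and -0.34 at 72 h (difference 0.84 ± 0.21, SE). Tfpi2, an inhibitor of serine proteases in the extracellular matrix, stood at 0.36 and 0.50 in the replicates of 192 h, against -0.83 and 0.13 in the measured replicates of 18 h and -0.41 and -0.21 at 72 h. Rab7, the GTPase of late endosomes, stood at 0.38 and 0.32 at 192 h, against -0.08 and -0.10 at 18 h and -0.38 and -0.26 at 72 h. For both genes the replicates of 192 h lay above all measured earlier ones, although neither difference passed the adjusted test. Within replicate 3 the high value came from the Cy3-tumour array, at 0.78 for Tfpi2 and 0.80 for Rab7, against -0.06 and -0.04 on its partner. Tfpi2 and Rab7 were named after their values were seen.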

How the data were processed

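Total RNA of 4 arrays at 192 h was analysed with the 10 total RNA arrays of 18 and 72 h, which share the estimate of the spread. Per the file headers, the deposited scanner tables hold, for each of 3 scans, an intensity per spot and channel with local background subtracted. They also hold, for each spot, the fraction of pixels below saturation, as deposited. The authors also deposited a value table of log ratios, whose base and normalization are not stated. The image program and annotation build were not given in the sources used. Spots marked good, with both intensities above 0 and at least 0.9 of pixels unsaturated, entered the log2 ratio. Loess (span 0.3) over the scan was subtracted, scans were averaged, Cy3-tumour arrays sign-turned and spots of 1 oligo averaged. Both arrays of a swap were required and averaged into 1 replicate value, and an oligo needed 2 such values. Printings were matched by oligo accession. Of 8997 oligos with 1 gene, 8909 were found in the RefSeq table of GRCm38.p6, used for names and chromosomes. Where several oligos of a gene were measured, the brighter one stood for it in lists (30 genes, 17 with all oligos of 1 sign).

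Replicate values were fitted in limma 3.58.1 under R 4.3.3, with a coefficient for each of the 3 times over 6056 oligos (lmFit, then eBayes), with Benjamini-Hochberg adjustment over the oligos tested and a threshold of 0.05, two-sided. The script was tested on simulated data. The SE is limma's moderated standard error. The number of arrays limits the precision. Named genes were, by rule, the 10 higher and 10 lower of one sign on all 4 arrays with the largest weakest ratio, the 6 of smallest p in each direction, 2 per list of at least 5 genes, and 17 preset genes; others are marked as chosen after their values were seen. Sgk1 and Tnf, of the preset genes, have no named oligo. The 36 gene lists, the named genes and the arrays were chosen with earlier results of these data known. Replicates 3 and 4 exist at both 72 and 192 h, and nothing says that a number marks a shared batch or animal.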

Additional observations from a re-analysis of the deposited data

Results flagged for a closer look

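In 86 groups of 4 array values (6 array measures and 80 named genes), Dixon's ratio exceeded its 95% critical value in 4; chance gives about 1 in 20. The 4 arrays are 2 replicates of 2 arrays each, not 4 independent samples. Spg21 stood at -3.63 on the Cy3-tumour array of replicate 3, against -0.43 to -0.08 on the others. Ids stood at 0.82 on the Cy5-tumour array of replicate 4, against 0.13 to 0.19. Id4, an inhibitor of basic helix-loop-helix factors, stood at 0.73 on the Cy3-tumour array of replicate 3, against -0.12 to 0.03. Il1b stood at -0.25 on the Cy5-tumour array of replicate 3, against 0.12 to 0.17.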

How the results depend on the processing

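The count of 0 calls at 192 h held under loess inside blocks, normexp, the filters on dim oligos and spot marks, and the first scan. It also held under trend and robust settings, ratios from 1 array, arrays as observations, the 192 h replicates alone and the authors' value table. Genes in place of oligos gave 0 calls, as did the replicate block (shared numbers as a random block, consensus correlation -0.0586, 91 unadjusted). With no array turned there were 0 calls too, but averaging a swap then cancels the tumour ratio, so that count is not a check of it. Same-numbered replicates of 72 and 192 h share only a number. Median centring gave 1 call (Spg21), and the median of scans 4 (Spg21, Kif5a, Cds2 and Kif1b). Of all settings, 4 were chosen after seeing the data, among them a spread from the oligos tested at 192 h alone, with 3 calls (Spg21, Kif5a and Cds2), and loess inside blocks with replicate 4 alone, with 14. Arrays as observations were limited to oligos of both replicates, and the 27 large ratios of replicate 4 were recomputed, by such a choice too. Leaving out 1 replicate gave 0 to 19 calls (19 without replicate 3) and 19 to 331 unadjusted (143 without the 18 h replicate 4, 331 without replicate 3, 19 without replicate 4), and 0 to 3 calls and 9 to 102 unadjusted for 192 h minus the earlier times, against 54 with all.

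The 93 oligos at an unadjusted p under 0.05 became 39 with median centring, 51 with normexp, 28 of 987 without dim oligos, 142 with ratios from 1 array, 154 with the 192 h replicates alone, 197 with no array turned, 196 with arrays as observations and 453 with loess inside blocks and replicate 4 alone. Turned or not, replicate 3 correlated at -0.596 or 0.596 between its arrays. The cause of these changes was not tested.

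Of 80 named genes, those that changed sign are these. Loess inside blocks gave Id4 -0.02 and Bdnf -0.11, median centring Ntrk2 -0.03, and the authors' value table Ntrk2 -0.01, Il13 -0.01 and Bdnf -0.04. Replicate 4 alone with loess inside blocks gave Ntrk2 -0.07, Fabp7 -0.13, Id4 -0.11, Lcn2 0.12 and Bdnf -0.24. Leaving out replicates in turn, the genes whose sign changed were Kif1b from -0.01 to 1.55, Ntrk2 from -0.04 to 0.30, Dlg4 from -0.13 to 1.02, Camk2a from -0.10 to 0.74, Fabp7 from -0.16 to 0.82, Id4 from -0.04 to 0.35, Crym from -0.43 to 0.07, Relb from -0.04 to 0.42, Gabrb2 from -0.03 to 0.30, Lcn2 from -0.35 to 0.12, Bdnf from -0.16 to 0.28 and Il1b from -0.07 to 0.17. Those that changed without replicate 3 were Ntrk2, Fabp7, Id4, Lcn2 and Bdnf, and the others changed without replicate 4. Kif5a ran from -0.13 to 2.12 over the arrays and from 0.89 to 1.08 over the settings that kept both replicates and the turning, Gad2 there from 0.38 to 0.82 and Spg21 from -1.43 to -0.47. With no array turned, which leaves dye effects in, 58 changed sign: Rad23b -0.02, Pou6f1 -0.12, Zpbp 0.28, Mlycd 0.04, Esrra 0.14, Mrpl2 0.01, Ppp3cb 0.06, Asns 0.00, Gng13 0.03, Cds2 -0.29, Gad2 -0.29, 1700054O19Rik -0.06, Castor2 -0.03, Sdc4 -0.10, Spg21 0.82, Emc9 0.17, Trmt2a 0.31, Slc32a1 -0.15, Nprl2 0.36, Kcnh7 -0.20, Cacna1a -0.19, Sv2c -0.16, Syn1 -0.14, Bcl2l1 -0.30, Mcl1 -0.24, Oxt -0.17, Ntrk2 -0.35, Rps25 0.28, Rpl11 0.07, Dlgap1 -0.35, Txnrd1 -0.21, Ndufb5 0.14, Uqcrb 0.40, Bhlhe40 -0.03, Tef -0.06, Sstr4 -0.01, Fabp7 -0.10, Id4 -0.23, Olig2 -0.27, Sox10 -0.07, Neurod6 -0.18, Crym 0.22, Psmd7 -0.21, Psmd2 0.20, Il13 -0.24, Dnaja1 0.14, Dnajb4 -0.02, Sel1l -0.30, Gabrb2 -0.26, Gabra2 -0.05, Pdhb 0.23, Mt1 0.02, Lcn2 0.37, Fos -0.03, Arc -0.35, Bdnf -0.14, Aif1 0.10 and Il1b -0.09.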
